A study of Rattus norvegicus with 4 samples.

Results

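The genes described here encode the nuclear subunits of the mitochondrial respiratory chain and of ATP synthase, and their mRNAs were measured in rat astrocytes cultured with or without neurons. They were found on the array by name. A probe was taken when its gene name, after a suffix for predicted or mapped entries was dropped, began with Nduf, Uqcr, Atp5 or Cox followed by a digit from 4 to 8, or was Sdha, Sdhb, Sdhc or Sdhd. This gave 70 genes with 82 probes, out of 35658 gene names with 41012 probes on the array. Of these, 68 genes with 78 probes passed the filter on dim probes, by which at least 1 RNA had to exceed background on all of its arrays, and are the genes measured here. They comprised 30 genes of complex I, 4 of complex II, 5 of complex III, 12 of complex IV and 13 of complex V. The names also matched 4 measured genes that encode no subunit: Cox7a2l, which helps respiratory complexes to assemble into larger units, Ndufaf1, an assembly factor of complex I, Cox4nb, now named Emc8, a part of the endoplasmic reticulum membrane complex, and Atp5s, now named Dmac2l. Cox6b and Cox6c1 had no probe above background, and the probe under the name Cox6b is described in the array files as a Uroplakin-like mRNA, so that neither gene has a value here. The file names are old. All 70 have a current symbol, which differs for 20 of them, and the names of the files are kept in the text.

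The respiratory chain passes electrons from NADH and succinate to oxygen and pumps protons across the inner mitochondrial membrane, and ATP synthase uses the returning protons to make ATP. Complex I oxidizes NADH, complex II oxidizes succinate, complex III hands electrons from ubiquinol to cytochrome c, complex IV reduces oxygen, and complex V is ATP synthase. Each complex except complex II also holds subunits made from mitochondrial DNA, which the names do not match. Several subunits of complexes IV and V come in isoforms from separate genes, some of which are best known from heart, skeletal muscle, lung or testis. Astrocytes are known for a high rate of glycolysis beside respiration, and neurons for a heavy reliance on respiration.

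RNA was compared on 4 two-colour arrays for the whole rat genome. Astrocytes came from the cortex of Wistar pups at P1, and the co-plated neurons from hippocampi of mouse embryos at E18, so that in co-culture any mouse mRNA was read by probes designed for rat. CC is the co-culture of neurons and astrocytes, CC-CJ is the co-culture after cold jet, a stream of ice-cold phosphate-buffered saline that detaches the neurons, and AA-CJ is astrocytes cultured alone and given the same cold jet. CC-CJ carried Cy3 on all arrays, against AA-CJ in Cy5 on 2 arrays and against CC in Cy5 on the other two, and dyes were not swapped. Within an array, condition and dye cannot be told apart. Both CC and AA-CJ carried Cy5, so that a dye effect common to all arrays cancels in their difference. CC had no cold jet and AA-CJ did, and CC also held mouse mRNA. In this difference the presence of neurons, the reading of mouse mRNA by rat probes and the jet cannot be told apart. By the methods of the study, each replicate came from a different pool of animals. All arrays lay on 1 slide and were read in 1 scan, and between 50.3% and 62.6% of all probes were well above background per channel. Of the 9 astrocyte markers on the array, 9 were well above background in each RNA. Among the 10 neuronal markers, 9 were well above background in CC, 7 in CC-CJ and 5 in AA-CJ, and their summed log2 signal was 14.1 to 14.2 in CC, 13.0 in CC-CJ and 13.1 in AA-CJ. The sums compare Cy3 for CC-CJ with Cy5 for the other RNAs and do not show single markers. In CC-CJ over AA-CJ, 4 of the 9 neuronal markers tested were called higher and 0 lower, with a highest log2 ratio of 2.03. The precision is limited by having 2 arrays of each kind.

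Values are log2 ratios, and a difference was called at an adjusted p under 0.05 by limma with Benjamini-Hochberg adjustment over all 21330 genes tested. Errors (±) are standard errors from limma. The fit over all 4 arrays gives each gene 1 spread, drawn toward a value common to all genes (4.67 prior and 2 residual degrees of freedom). A mean ratio rests on 2 arrays (n = 2), and CC over AA-CJ on all 4. Against AA-CJ and against CC are short for the log2 ratio of CC-CJ over that RNA, given for replicate 1 and then replicate 2, and CC over AA-CJ is the difference of the 2 mean ratios. Over the 68 genes the median log2 ratio of CC-CJ over AA-CJ was -0.10, against -0.02 over all genes tested. It was -0.11 on replicate 1 and -0.09 on replicate 2, with 43 genes below 0 on both arrays and 17 above 0 on both. These were 63.2% and 25% of the 68, beside 36.2% and 29.3% of all genes. For CC-CJ over CC the median was 0.03, against -0.02 over all genes, with 17 genes below 0 on both arrays and 28 above. These were 25% and 41.2% of the 68, beside 38.3% and 26.8% of all genes. For CC over AA-CJ the median was -0.16, against 0.00 over all genes, with 40 genes lower and 11 higher in CC without overlap. Without overlap means that both ratios against CC lay on one side of both ratios against AA-CJ. Over all genes, 24.1% were lower and 26.2% higher without overlap. The first 2 comparisons share the CC-CJ RNA as a condition, and the third is built from both, so that they are not independent. These medians are relative to a curve fitted through brightness: when each array was only centred on its median, the medians of the 68 genes were -1.001, -0.64 and -0.39, which turns the direction of CC-CJ over CC, those of the brightest 10% of all genes were -0.91, -0.65 and -0.28, and those of all genes 0.01, 0.03 and -0.14. In bulk RNA, fewer cells of a type and less RNA per cell cannot be told apart.

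**Figure D1:**
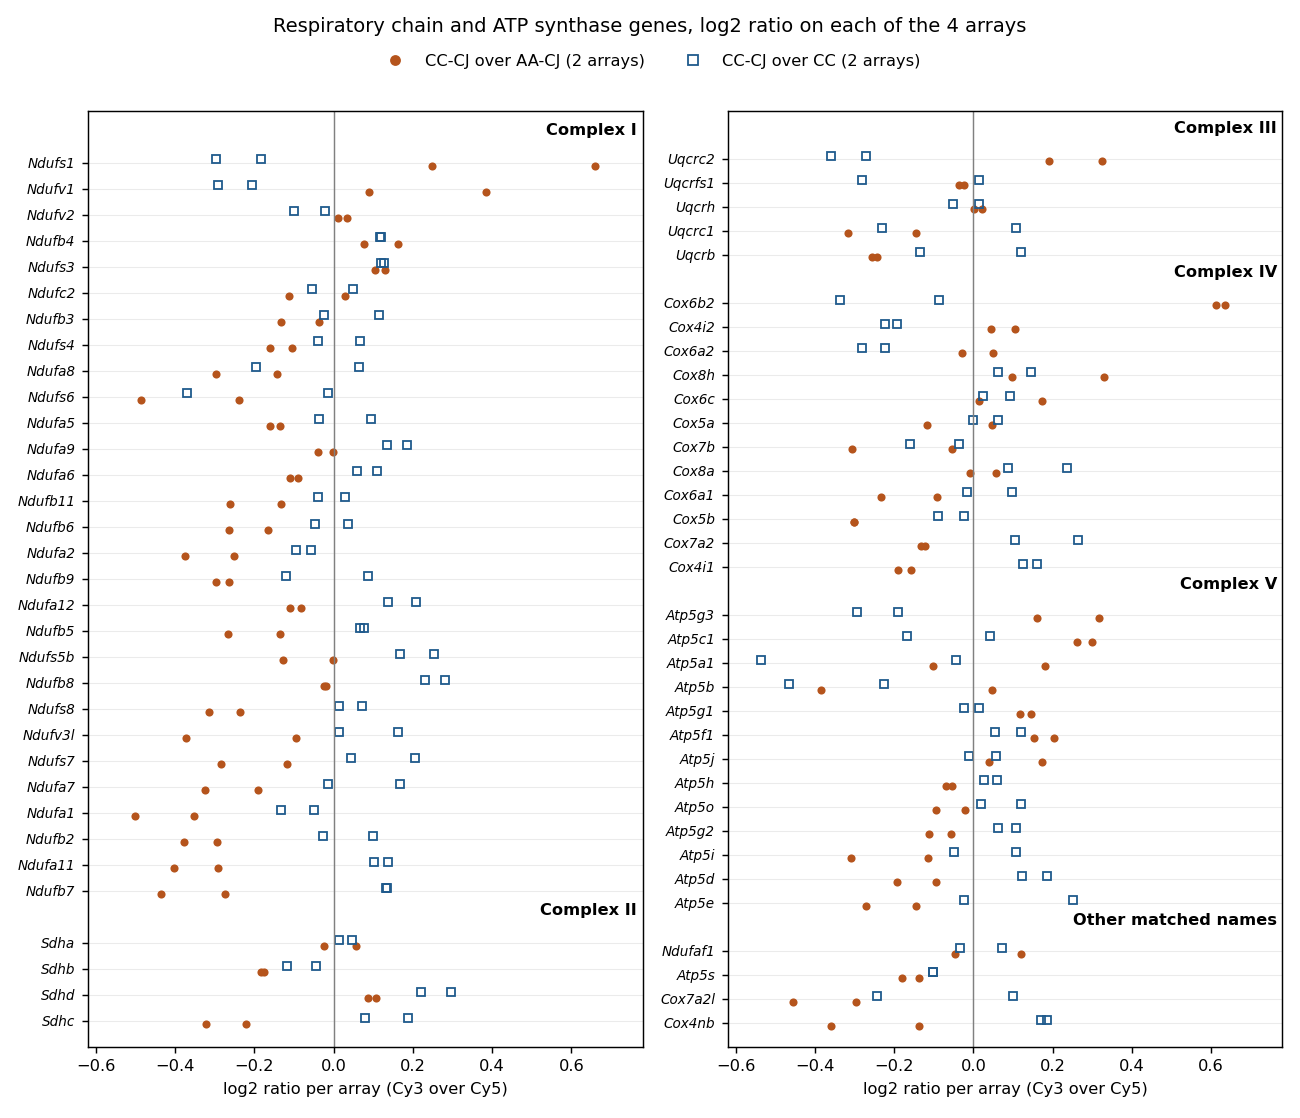
Log2 ratio of the measured genes, all but 1 of the 68, on each of the 4 arrays, ordered within each complex by the difference of CC from AA-CJ. Filled circles are the 2 arrays of CC-CJ over AA-CJ, and open squares the 2 arrays of CC-CJ over CC. Most complex I genes have both circles left of both squares, whereas Ndufs1, Uqcrc2, Cox6b2 and Atp5g3 have them to the right.

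A single gene passed in any comparison. Cox6b2, the isoform of a complex IV subunit best known from testis, was lower in AA-CJ than in either co-culture RNA, CC-CJ or CC. For CC-CJ over AA-CJ this was 1 gene called higher and 0 called lower among 68, where 1.87% of all genes were called higher and 1.11% lower. At an unadjusted p under 0.05, 6 of the 68 were higher and 16 lower, beside 10.8% and 11.8% of all genes. For CC-CJ over CC, limma called 0 higher and 0 lower, where 0.0985% of all genes were called higher and 2.24% lower. At an unadjusted p under 0.05, 3 were higher and 6 lower in that comparison, beside 5.1% and 11.8% of all genes. For CC over AA-CJ, 1 was called higher and 0 lower, beside 2.56% and 0.0797% of all genes, and at an unadjusted p under 0.05 the counts were 7 and 13, beside 11.3% and 6.42%. A part of the selection in the methods, a ratio beyond 2 SD on both arrays, was taken alone and on the ratios used here. It also took Cox6b2 for CC-CJ over AA-CJ and no gene of the list for CC-CJ over CC. The methods used values normalized by OLIN and OSLIN. They further checked replicate probes and left out upregulated mRNAs that the jet strongly lowered.

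The medians of the complexes are given as a description, and the difference between complexes was not tested. In complex I, 25 of 30 genes (83.3%) were below 0 in CC-CJ over AA-CJ, beside 53.7% of all genes. The complex I median was -0.17, with -0.13 on replicate 1 and -0.14 on replicate 2. The medians of the same comparison were -0.08 in complex II, -0.03 in complex III, -0.01 in complex IV and -0.06 in complex V. For CC over AA-CJ the complex I median was -0.20, with 22 genes lower and 3 higher without overlap between the arrays. It was -0.13 in complex II, with 3 lower and 0 higher. In complex III it was 0.03, with 1 lower and 1 higher, in complex IV -0.07, with 5 lower and 3 higher, and in complex V 0.08, with 6 lower and 4 higher. Over all genes, 24.1% were lower and 26.2% higher without overlap, and the counts of the complexes were not tested against these shares. For CC-CJ over CC the medians lay between -0.06 in complex III and 0.08 in complex II, and under median centring between -0.77 and -0.55. The complex III median of that comparison was -0.23 without replicate 1 of CC and 0.015 in the authors' value table. That of complex IV, 0.04, was 0.078 without replicate 1 of CC, -0.009 without replicate 2 of CC and -0.05 with scanner-processed signals. The complex I median stayed below 0 under each alternative of processing in both comparisons with AA-CJ, between -0.20 and -0.13 for CC-CJ over AA-CJ and between -0.26 and -0.19 for CC over AA-CJ apart from median centring, where it was -1.04 and -0.47. That of complex II also stayed below 0 in both. The complex III median for CC over AA-CJ turned to -0.04 without replicate 2 of CC, that of complex V turned to -0.04 without replicate 2 of AA-CJ, and both were -0.28 under median centring. The complex III median was also 0.002 without replicate 1 of CC, and that of complex V 0.002 in the authors' value table. The complex IV median for CC over AA-CJ was -0.026 without replicate 2 of CC, -0.03 without replicate 1 of AA-CJ and -0.12 without replicate 1 of CC. The complex IV and V medians for CC-CJ over AA-CJ changed sign too, to 0.02 in the authors' value table and to 0.05 without replicate 1 of AA-CJ.

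**Figure D2:**
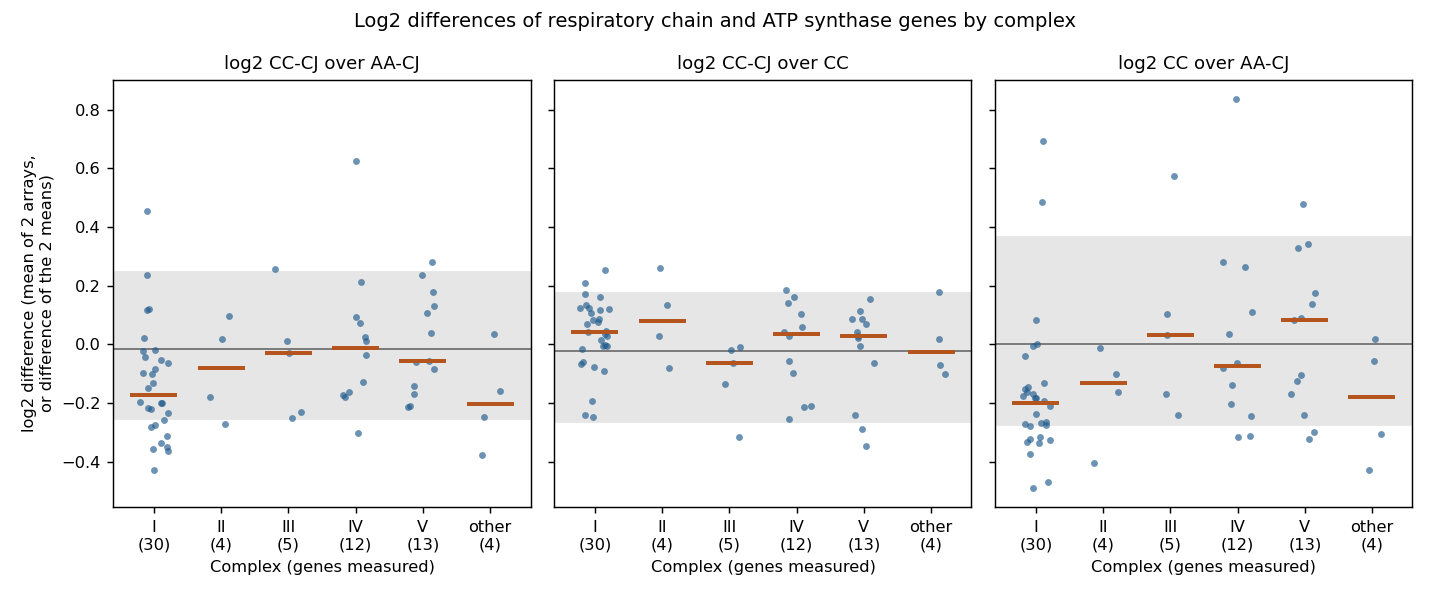
Log2 difference of each measured gene by complex, in the 3 comparisons. Points are genes, the short orange bars the medians of a complex, the grey line the median and the grey band the 10th to 90th percentile of all genes tested. The complex I medians of -0.17 and -0.20 in the comparisons with AA-CJ lie below the grey line in both. Cox6b2 is the highest point of complex IV there, at 0.62 and 0.84. Under median centring the complex I medians were -1.04 and -0.47, beside -0.91 and -0.28 in the brightest 10% of all genes.

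Complex I carries a catalytic core that takes electrons from NADH and passes them to ubiquinone, with many accessory subunits around it. The array measured 7 core genes, among them Ndufs1 and Ndufv1, and 23 accessory genes. Of the accessory genes, with the kept probes of a gene averaged, 22 were below 0 in CC-CJ over AA-CJ, 21 of them on both arrays. Over all genes, 53.7% were below 0 and 36.2% were so on both arrays. The accessory median was -0.20. For CC over AA-CJ, 19 of the 23 were lower in CC without overlap and 0 higher, and the median was -0.24. The 7 core genes split, with 3 below and 4 above 0 in CC-CJ over AA-CJ, a median of 0.02, and 3 lower and 3 higher in CC than in AA-CJ without overlap. Over all genes, 24.1% were lower and 26.2% higher in CC without overlap. This grouping was made after the values were seen, and the difference between the groups was not tested. The accessory medians stayed below 0 under each alternative in both comparisons with AA-CJ, whereas the core medians changed sign among the alternatives.

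Ndufs1, the large iron-sulphur subunit of the core, had the highest ratio of complex I in CC-CJ over AA-CJ and in CC over AA-CJ. Its log2 ratio of CC-CJ over AA-CJ was 0.25 and 0.66 on the 2 arrays, and that of CC-CJ over CC was -0.18 and -0.30. The levels in AA-CJ were below those in CC and in CC-CJ on every array, without overlap. The difference of CC from AA-CJ was 0.69 ± 0.16 (adjusted p = 0.0907), which did not pass. Without replicate 1 of AA-CJ it was 0.90 and passed (adjusted p = 0.0398), and without replicate 2 of AA-CJ it was 0.49 (adjusted p = 0.179), with the spread then taken from the CC arrays. Ndufv1, which binds NADH and the flavin, stood at 0.09 and 0.38 in CC-CJ over AA-CJ and at -0.21 and -0.29 in CC-CJ over CC. Its difference of CC from AA-CJ was 0.49 ± 0.14 (adjusted p = 0.146). Ndufv2, the partner of Ndufv1, was near 0 on all arrays, between -0.10 and 0.03. Ndufs7 and Ndufs8, core subunits with iron-sulphur clusters near the ubiquinone site, went the other way, with -0.32 ± 0.13 and -0.32 ± 0.11 for CC over AA-CJ. Ndufs3, also of the core, was between 0.10 and 0.13 on all 4 arrays.

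Among accessory genes, Ndufb7 had the lowest value for CC over AA-CJ. Its log2 ratio of CC-CJ over AA-CJ was -0.44 and -0.28, and that of CC-CJ over CC was 0.13 and 0.13, so that the arrays did not overlap. CC was lower than AA-CJ by -0.49 ± 0.12 (adjusted p = 0.102). Ndufa11, an accessory subunit of the membrane arm named after its values were seen, followed at -0.29 and -0.40 against AA-CJ, 0.14 and 0.10 against CC, and -0.47 ± 0.11 (adjusted p = 0.105) for CC over AA-CJ. Ndufa1, a small subunit of the membrane arm, had the lowest ratio of the 68 genes in CC-CJ over AA-CJ, with -0.50 and -0.35 on the 2 arrays and -0.43 ± 0.08 on average (adjusted p = 0.0525). Against CC it was -0.05 and -0.13. Ndufa1 did pass when only the arrays of this comparison were fitted, with an adjusted p of 0.0482. Ndufb8 had the highest ratio of the complex in CC-CJ over CC, with 0.23 and 0.28 on the arrays, -0.02 and -0.02 against AA-CJ, and a mean of 0.26 ± 0.08 (adjusted p = 0.185), which became -0.58 under median centring. With probes averaged, Ndufb4 alone among accessory genes was above 0 against AA-CJ, at 0.16 and 0.08, and it was at 0.12 and 0.12 against CC. The brightest probes of Ndufa9 and Ndufc2 were also above 0 against AA-CJ on average, at 0.10 and 0.097, whereas their gene values over all kept probes were -0.02 and -0.04. No gene of complex I passed in the fit over all arrays without a block. Of those named, Ndufa9, Ndufc2, Ndufv2, Ndufs3, Ndufs7, Ndufs8 and Ndufb4 were also chosen after their values were seen.

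Promoter sequences are shown for 4 of these genes because their mRNAs differed in direction or passed the test: Cox6b2 and Ndufs1, higher in CC than in AA-CJ, and Ndufb7 and Ndufa11, lower in CC. RefSeq promoters of build GRCr8 matched 60 of the 68 genes by symbol, and the 250 bases before each start were searched on both strands. The motifs were GCGCNNGCG for NRF1, CCGGAAG for the ETS family, AAGATGGC for YY1 and TNAAGGTCA for estrogen-related receptors (ERR), all known from promoters of respiratory genes. NRF1 letters occurred in 20 of 60 promoters, or 33.3%, against 9.28% of 33469 promoters, and ETS letters in 18, or 30%, against 7.27%. YY1 letters occurred in 2, or 3.33%, against 1.63%, and ERR letters in 1, or 1.67%, against 1.04%. Of 35 genes with a promoter that were lower in CC than in AA-CJ without overlap, 14 held NRF1 letters and 12 ETS letters, and of 10 that were higher, 2 and 2. The 33469 promoters are all entries of the reference and were not matched to the members in base composition or expression, whereas each member counts once. A match of letters is a description of the sequence and was not tested for binding. Capitals mark the matches: 1 ETS match each in Ndufs1 and Ndufb7, a run of 4 overlapping NRF1 matches in Ndufa11, and none in Cox6b2. The marked letters of Ndufa11 read alike on both strands, so that each site there counts once per strand. Cox6b2 was read at chr1:78122621-78122870 on the forward strand. Ndufs1 was read at chr9:72073606-72073855 on the reverse strand. Ndufb7 was read at chr19:41477292-41477541 on the reverse strand. Ndufa11 was read at chr9:1637364-1637613 on the forward strand.
Cox6b2: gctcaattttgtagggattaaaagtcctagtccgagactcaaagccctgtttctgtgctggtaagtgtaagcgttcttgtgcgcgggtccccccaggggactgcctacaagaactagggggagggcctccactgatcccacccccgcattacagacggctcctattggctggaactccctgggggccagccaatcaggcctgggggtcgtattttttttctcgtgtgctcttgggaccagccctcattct
Ndufs1: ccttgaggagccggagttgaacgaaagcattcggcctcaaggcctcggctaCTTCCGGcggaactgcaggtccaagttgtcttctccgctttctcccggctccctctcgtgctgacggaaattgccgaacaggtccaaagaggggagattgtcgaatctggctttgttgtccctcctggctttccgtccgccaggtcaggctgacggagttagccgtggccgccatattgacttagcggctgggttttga
Ndufb7: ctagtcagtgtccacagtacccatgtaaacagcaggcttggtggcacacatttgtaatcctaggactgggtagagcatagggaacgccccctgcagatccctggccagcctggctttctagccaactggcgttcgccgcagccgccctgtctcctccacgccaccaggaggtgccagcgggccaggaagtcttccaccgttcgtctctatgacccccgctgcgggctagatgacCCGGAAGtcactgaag
Ndufa11: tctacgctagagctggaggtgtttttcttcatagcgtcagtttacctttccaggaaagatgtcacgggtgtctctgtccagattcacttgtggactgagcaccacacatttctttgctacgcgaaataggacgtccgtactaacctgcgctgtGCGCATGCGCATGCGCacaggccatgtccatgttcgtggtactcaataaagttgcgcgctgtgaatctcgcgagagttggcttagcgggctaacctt

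Complex II, succinate dehydrogenase, is encoded by 4 genes, all of them measured. Sdha, the flavin subunit that oxidizes succinate, was between -0.02 and 0.06 on all 4 arrays. Sdhb, the iron-sulphur subunit, stood at -0.18 and -0.18 against AA-CJ and at -0.04 and -0.12 against CC. Sdhc and Sdhd anchor the enzyme in the membrane and bind ubiquinone. Sdhc was at -0.22 and -0.32 against AA-CJ and at 0.19 and 0.08 against CC, with a difference of CC from AA-CJ of -0.41 ± 0.12 (adjusted p = 0.151). Sdhd was above 0 on every array, with 0.09 and 0.11 against AA-CJ and 0.22 and 0.30 against CC, and its mean against CC was 0.26 ± 0.08 (adjusted p = 0.185). The catalytic Sdha thus overlapped between CC and AA-CJ, and the other three were lower in CC without overlap. Under median centring Sdhd turned to -0.74 against AA-CJ and -0.35 against CC.

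Complex III was measured through 5 genes. Uqcrc2, a core subunit of the matrix side, had the highest value of the complex for CC over AA-CJ. Its ratio was 0.32 and 0.19 against AA-CJ and -0.27 and -0.36 against CC, with no overlap between the arrays. CC exceeded AA-CJ by 0.57 ± 0.12 (adjusted p = 0.0674), the smallest adjusted p of the list after Cox6b2 in that comparison. Its companion Uqcrc1 behaved unlike it, with -0.32 and -0.14 against AA-CJ, 0.11 and -0.23 against CC, and -0.17 ± 0.15 for CC over AA-CJ. Uqcrb, a small subunit near the ubiquinone site, was at -0.24 and -0.26 against AA-CJ and at -0.14 and 0.12 against CC, without overlap, and its difference of CC from AA-CJ was -0.24 ± 0.13. Uqcrh, the hinge protein that helps cytochrome c to dock, stayed between -0.05 and 0.02, and Uqcrfs1, the Rieske iron-sulphur protein, between -0.28 and 0.01. None of the 5 passed.

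Complex IV held Cox6b2, the gene that passed. The normalized log2 signal of Cox6b2 was 6.55 and 6.39 in AA-CJ, 7.25 and 7.34 in CC, and 7.19, 7.00, 7.16 and 7.00 in CC-CJ. AA-CJ lay below all 6 other values, and CC lay above all 4 values of CC-CJ. On the ratio scale this was 0.63 and 0.61 for CC-CJ over AA-CJ, a mean of 0.62 ± 0.09 or 1.54-fold (adjusted p = 0.0277). For CC over AA-CJ it was 0.84 ± 0.13, or 1.78-fold (adjusted p = 0.0261). Against CC, CC-CJ stood at -0.09 and -0.34, with a mean of -0.21 ± 0.09 (adjusted p = 0.31). The probe is dim, at a mean log2 brightness of 6.99, although well above background in each channel, and the fold depends on the treatment of background: with signals processed by the scanner software it was 1.68 and 2.03 on the log2 scale (adjusted p = 0.0683 and 0.0623 by limma). Leaving out either AA-CJ array left CC-CJ over AA-CJ at 0.61 without replicate 1 and 0.63 without replicate 2, past the threshold in neither case (adjusted p = 0.118 and 0.0704 by limma). CC over AA-CJ was then 0.82 and 0.85 (adjusted p = 0.0716 and 0.0513), and 0.71 without replicate 2 of CC (adjusted p = 0.0983). In these refits the lone array is assumed to vary like those of the other kind, from which the spread is taken. The probe lies at chr1:67810813-67811438 of rn4 on the forward strand by the array files. Of the 9 neuronal markers tested, 4 were called higher against AA-CJ in CC-CJ and 6 in CC. Microglial markers, of which 2 of 7 were well above background in AA-CJ, 3 in CC-CJ and 5 in CC, had a summed log2 signal of 9.72 to 9.88 in AA-CJ, 10.1 to 10.4 in CC-CJ and 10.97 to 10.99 in CC. Snap25, Syp and Syt1 of the neuronal list and Aif1, Csf1r, Cx3cr1 and Itgam of the microglial list were not well above background in CC-CJ or AA-CJ. Endothelial markers, of which 2 of 6 were well above background in AA-CJ, 1 in CC-CJ and 3 in CC, had a sum of 8.77 to 8.83 in AA-CJ, 9.81 to 9.93 in CC-CJ and 9.96 in CC. Of the 3 endothelial markers tested, Kdr, a receptor for vascular endothelial growth factor, was called higher than in AA-CJ, by 2.62 in CC-CJ and 2.67 in CC. Cdh5, Cldn5, Flt1 and Tek of that list were not well above background in CC-CJ or AA-CJ. Oligodendrocyte markers had a sum of 10.7 to 10.9 in AA-CJ and in CC-CJ and of 11.2 to 11.5 in CC, with 0 of 7 called higher in CC-CJ and 1 in CC. Fibroblast markers had a sum of 13.8 to 13.9 in AA-CJ, 13.9 to 14.1 in CC-CJ and 14.0 to 14.1 in CC, with 0 of 3 called higher in CC-CJ and 1 in CC. The part of these cells in the result was not tested.

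Other isoforms of complex IV fell on both sides. Cox4i1, the general form of the regulatory subunit, was at -0.19 and -0.16 against AA-CJ and at 0.16 and 0.13 against CC. Cox4i2, the form best known from lung, was at 0.04 and 0.10 against AA-CJ and at -0.19 and -0.22 against CC. For CC over AA-CJ this gave -0.32 ± 0.11 for Cox4i1 and 0.28 ± 0.11 for Cox4i2 (adjusted p = 0.213 and 0.259), each without overlap between the arrays. Cox6a1, the general form, was at -0.23 and -0.09 against AA-CJ and at -0.02 and 0.10 against CC, whereas Cox6a2, the heart and muscle form, was at -0.03 and 0.05 against AA-CJ and at -0.28 and -0.22 against CC. The difference of CC from AA-CJ was -0.20 ± 0.12 for Cox6a1 and 0.26 ± 0.11 for Cox6a2. Thus in each of these pairs the general form was lower and the tissue form higher in CC than in AA-CJ without overlap. The signs were the same under each alternative, and no single difference passed. Lack of overlap is common, since 24.1% of all genes were lower and 26.2% higher in CC by that measure. The difference within a pair was not tested. Cox7a2 was lower in CC as well, at -0.31 ± 0.12, and so was Cox8a, at -0.14 ± 0.12, both without overlap. Cox8h, the heart and muscle form now named Cox8b, was well above background on 1 of 2 arrays in AA-CJ and on 2 of 4 in CC-CJ, and its CC and AA-CJ arrays overlapped. Cox5b, which binds zinc, had the lowest ratio of the complex in CC-CJ over AA-CJ, at -0.30 and -0.30 on the arrays and -0.30 ± 0.08 on average (adjusted p = 0.0899), and was at -0.09 and -0.02 against CC.

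**Figure D3:**
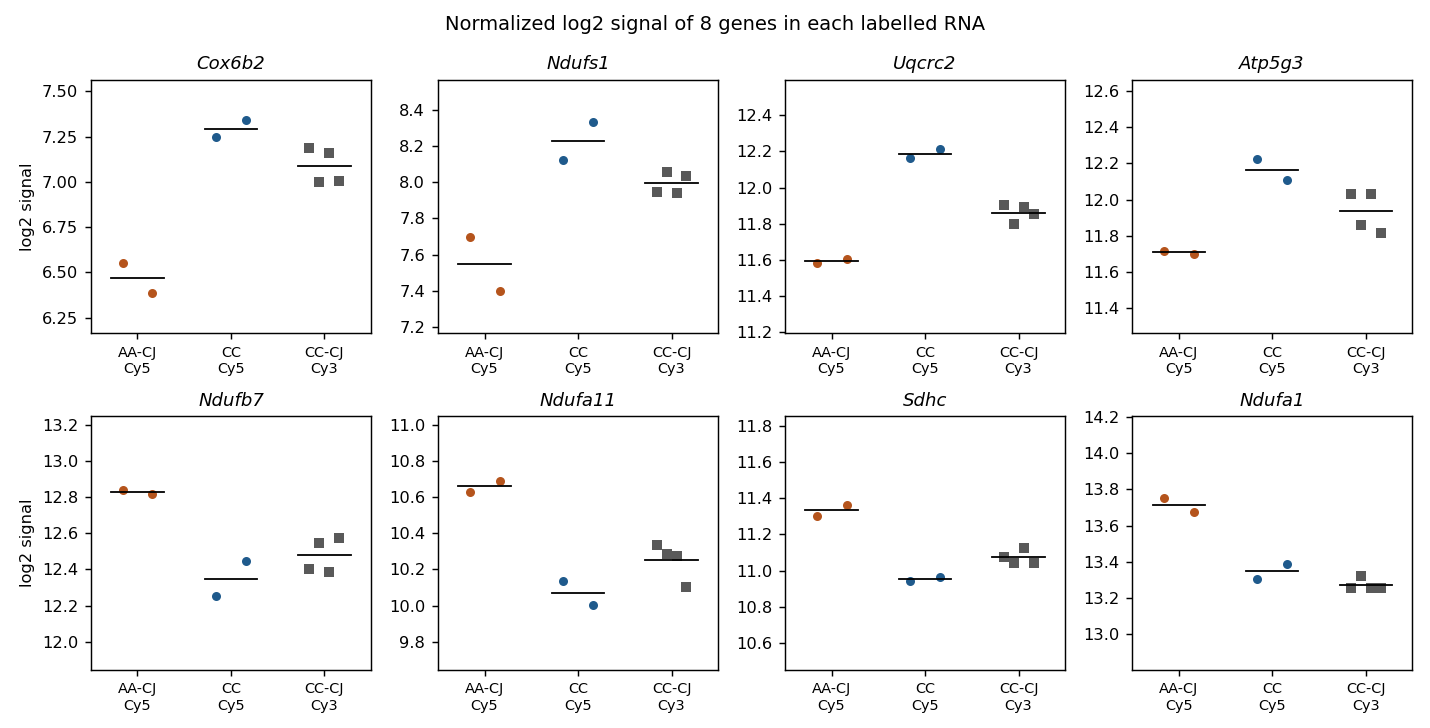
Normalized log2 signal of 8 genes in each labelled RNA. Each point is an array channel (2 of AA-CJ and 2 of CC in Cy5, 4 of CC-CJ in Cy3), the black bar is the mean of a group, and every panel spans the same log2 range. In the upper row (Cox6b2, Ndufs1, Uqcrc2 and Atp5g3) AA-CJ lies below CC and CC-CJ, and in the lower row (Ndufb7, Ndufa11, Sdhc and Ndufa1) above them. Cox6b2 is the gene that passed.

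Complex V was measured through 13 genes. In the catalytic head, Atp5c1, which encodes the rotating gamma subunit, was at 0.30 and 0.26 against AA-CJ and at 0.04 and -0.17 against CC, and its difference of CC from AA-CJ was 0.34 ± 0.13 (adjusted p = 0.227). Atp5a1 and Atp5b, the subunits that carry the nucleotide sites, varied between replicates. Atp5a1 was at -0.10 and 0.18 against AA-CJ and at -0.04 and -0.54 against CC, and Atp5b was at -0.38 and 0.05 and at -0.23 and -0.46. Both overlapped between CC and AA-CJ. Atp5d and Atp5e, small subunits of the central stalk, were lower in CC without overlap, at -0.30 ± 0.11 and -0.32 ± 0.14. The peripheral stalk genes Atp5f1, Atp5h, Atp5j and Atp5o stayed between -0.13 and 0.09 for CC over AA-CJ.

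The 3 genes of the ring that turns with the proton flow encode the same mature protein, and they did not move together. Atp5g3 was at 0.32 and 0.16 against AA-CJ and at -0.19 and -0.29 against CC. CC exceeded AA-CJ by 0.48 ± 0.12 (adjusted p = 0.111) over its 2 probes, whose mean ratios against CC differed by 0.36. With the brightest probe alone the difference of CC from AA-CJ was 0.24 and the ratio against CC -0.06. Atp5g1 was at 0.15 and 0.12 against AA-CJ and at -0.03 and 0.02 against CC, with 0.14 ± 0.11 for CC over AA-CJ. Atp5g2 was at -0.11 and -0.06 against AA-CJ and at 0.06 and 0.11 against CC, with -0.17 ± 0.11. The CC and AA-CJ arrays did not overlap for any of the 3 genes, and none passed. The sign of Atp5g2 turned to 0.01 when only its brightest probe was used. Atp5i, a small membrane subunit, had the lowest ratio of the complex in CC-CJ over AA-CJ, at -0.31 and -0.11.

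Of the names that encode no subunit, Cox7a2l was at -0.46 and -0.30 against AA-CJ and at 0.10 and -0.24 against CC, and Cox4nb at -0.36 and -0.14 and at 0.17 and 0.19. Their differences of CC from AA-CJ were -0.30 ± 0.15 and -0.43 ± 0.13 (adjusted p = 0.353 and 0.157). The assembly factor Ndufaf1 stayed between -0.05 and 0.12, and Atp5s between -0.18 and -0.10.

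The list is made of bright genes, and 46 of the 68 fell in the brightest 10% of all genes. The mean log2 brightness of complex I ranged from 7.12 to 15.3 with a median of 12.3, that of complex II from 11.1 to 13.9, of complex III from 7.72 to 14.8, of complex IV from 6.40 to 15.7 and of complex V from 10.8 to 15.3. Brightness depends on the probe as well as on the mRNA, so that these ranges say where the measurements lie on the scale and rank no gene or complex by abundance. In the brightest 10% of all genes the median was 0.00 for CC-CJ over AA-CJ and -0.02 for CC over AA-CJ, against -0.17 and -0.20 in complex I. Over the 68 genes, which are not independent, the ratios of the 2 CC-CJ over AA-CJ arrays correlated at r = 0.794 and those of the 2 CC-CJ over CC arrays at r = 0.613, and over all probes at r = 0.4999 and r = 0.527. Arrays of one kind share dyes and slide. Among genes with several kept probes, the widest gap in mean ratio between probes was 0.48, for Cox5b against CC. The averaged probes also differed in log2 brightness, by 6.76 in Ndufb3, 6.04 in Ndufc2, 5.59 in Cox5a and 4.32 in Ndufa9. In the other such genes the gap in brightness was at most 1.92. In Ndufb3, Ndufc2, Cox5a and Cox8h, 5 probes lie on the other strand than the probe with a reference transcript. Without these probes the complex I median for CC-CJ over AA-CJ was -0.19.

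**Figure D4:**
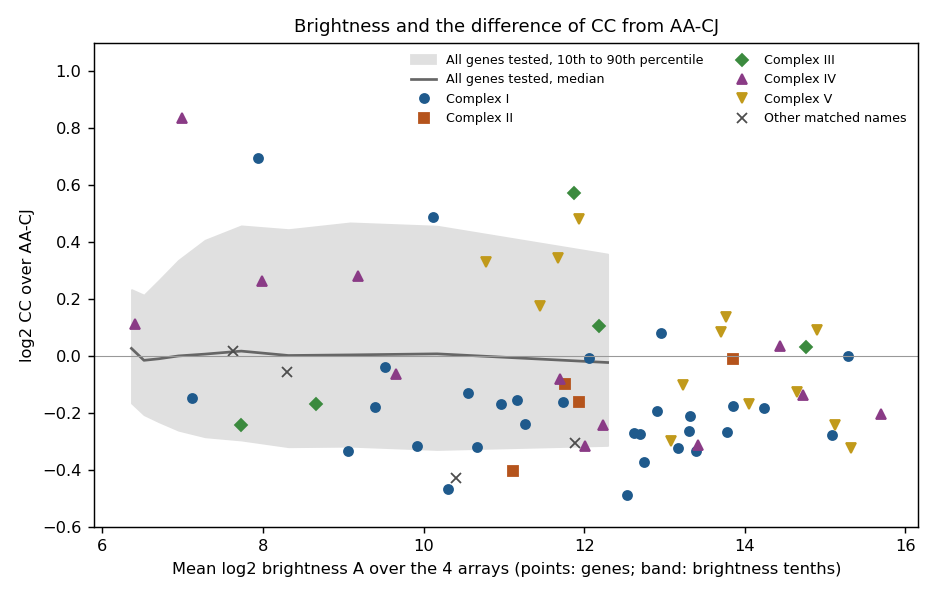
Difference of CC from AA-CJ against mean log2 brightness for the 68 genes, with symbols by complex. The band and line give the 10th to 90th percentile and the median of all genes in each of 10 bins of brightness. Cox6b2, at a brightness of 6.99 and a difference of 0.84, lies above the band, and the lowest point is Ndufb7 of complex I at -0.49.

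Neighbouring pathways were read from lists of named genes, none of which limma called except in the ribosomal list. At an unadjusted p under 0.05, 10.8% of all genes were higher and 11.8% lower in CC-CJ over AA-CJ. The shares were 5.1% and 11.8% in CC-CJ over CC, and 11.3% and 6.42% in CC over AA-CJ. They stand beside the counts at that threshold in each list below. For the counts above and below 0, 53.7% of all genes were below 0 in CC-CJ over AA-CJ and 49.7% in CC over AA-CJ. Of 12 electron carriers and assembly factors measured, such as cytochrome c (Cycs), 0 were called, and at an unadjusted p under 0.05 there were 0 higher and 1, 3 and 1 lower in the 3 comparisons. Their median for CC over AA-CJ was 0.11, with 9 above and 3 below 0, but 0.047 in the authors' value table and -0.00 under median centring. In the citrate cycle and pyruvate dehydrogenase, which supply the chain with NADH and succinate, 0 of 14 were called. The median was 0.12 for CC-CJ over AA-CJ and 0.19 for CC over AA-CJ, with 10 and 12 genes above 0. At an unadjusted p under 0.05, 3 and 4 of the 14 were higher and 0 lower in these comparisons, and 1 was higher and 3 lower in CC-CJ over CC. The citrate cycle median for CC over AA-CJ stayed above 0 under each alternative, at 0.07 under median centring, whereas that for CC-CJ over AA-CJ turned to -0.48.

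Of 8 genes for nucleotide and outer membrane transport, 0 were called, and the median for CC over AA-CJ was 0.13, which turned to -0.10 under median centring, with 2 higher and 0 lower at an unadjusted p under 0.05. In CC-CJ over AA-CJ 1 was higher and 0 lower by that measure, and in CC-CJ over CC 0 and 1. Of 10 regulators of mitochondrial gene expression 0 were called. At an unadjusted p under 0.05, 2 were higher and 0 lower in CC-CJ over AA-CJ, 0 higher and 1 lower in CC-CJ over CC, and 0 either way in CC over AA-CJ, where the median was 0.05, or -0.09 under median centring. Glycolysis had 0 of 16 called. At an unadjusted p under 0.05, 2 were higher and 1 lower in CC-CJ over AA-CJ, 2 higher and 0 lower in CC-CJ over CC and also in CC over AA-CJ, where the median was 0.02, which turned to -0.24 under median centring. Cytosolic ribosomal proteins, another set of bright genes, had a median of -0.24 for CC-CJ over AA-CJ and -0.20 for CC over AA-CJ, with 66 and 67 of 75 below 0 and the same sign under each alternative. In CC-CJ over AA-CJ 15 ribosomal genes were called lower and 0 higher, beside 1.11% and 1.87% of all genes, and in CC-CJ over CC 7 were called lower and 0 higher, beside 2.24% and 0.0985%. In CC over AA-CJ limma called 0 either way, with 1 higher and 18 lower at an unadjusted p under 0.05, beside 11.3% and 6.42% of all genes. The difference of the respiratory list from the ribosomal or the citrate cycle list was not tested.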

How the data were processed

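Scanner files of 4 arrays were analysed, with Cy3 and Cy5 intensity deposited per spot by Feature Extraction 9.5.1.1. The authors normalized the same arrays with OLIN and OSLIN and deposited log2 ratios of Cy5 over Cy3, which served as an alternative here. Mean and background intensities were corrected with normexp (offset 50) and normalized by loess (span 0.3) in limma 3.58.1 under R 4.3.3, with control and outlier spots at weight 0. Log2 Cy3 over Cy5 was averaged over spots and then over the kept probes of a gene name. A probe was kept if at least 1 RNA exceeded background on all of its arrays by the scanner flag, which left 24881. Levels were read per channel after Aquantile normalization. A single limma fit over 4 arrays gave each comparison, with 2 residual degrees of freedom and Benjamini-Hochberg adjustment over all genes, and the method was tested on simulated data. Whether the CC-CJ RNA differed between arrays of the same replicate number is not given in the sources used here, so that p-values measure only the spread between these arrays.

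The members and gene lists were chosen with earlier results of these data known. Named genes were those that passed, the highest and lowest of each complex in each comparison, all of complex II, the tissue isoforms and genes without a kept probe. Alternatives were other background corrections, median centring, the authors' table, other probe filters and summaries, fits of single comparisons, a replicate block and leaving out each array. The values of 1 gene, counted in the totals, are not reported here.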

Additional observations from a re-analysis of the deposited data

How the results depend on the processing

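Of 1229 values of 28 named genes under the alternatives, 1022 kept their call and moved by less than the spread between replicates, 137 moved by more, 9 lost and 39 gained a call and 22 changed direction with a call. With scanner-processed signals 0 genes were called higher against AA-CJ in CC-CJ and 0 in CC, and the medians were -0.13 and -0.18. An offset of 16 gave a median of -0.18 for CC over AA-CJ, and the authors' table -0.19. The brightest probe of each gene gave -0.11 for CC-CJ over AA-CJ and -0.14 for CC over AA-CJ, and leaving out probes of the other strand, chosen after seeing the data, -0.11 for the first. When only the arrays of a comparison were fitted, 1 gene, Ndufa1, was called lower in CC-CJ over AA-CJ.

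Median centring, which leaves the curve of ratio against brightness in place, called 2 higher and 62 lower in CC-CJ over AA-CJ (median -1.001), 2 higher and 59 lower in CC-CJ over CC (-0.64) and 5 lower in CC over AA-CJ (-0.39). Under this centring the medians of the brightest genes, the class compared above, were -0.91, -0.65 and -0.28 in the same order. The share of all genes called under median centring is not given here. These counts therefore cannot be read as a property of respiratory genes alone. Median centring turned CC-CJ over AA-CJ to -0.74 for Sdhd, -0.55 for Uqcrc2, -0.51 for Atp5c1, -0.37 for Ndufv1, -1.06 for Sdha, -0.59 for Atp5g3, -0.93 for Atp5g1, -0.40 for Cox4i2 and -1.16 for Cox8a. It turned CC-CJ over CC to -0.35 for Sdhd, -0.43 for Sdhc, -0.81 for Atp5i, -0.58 for Ndufb8, -0.53 for Cox7a2 and Atp5d, -0.51 for Ndufb7, -0.72 for Sdha, -0.47 for Cox4i1, -0.74 for Atp5e, -0.68 for Atp5g2, -0.84 for Cox6a1 and -0.65 for Cox8a.

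Leaving out each array gave 0 to 1 higher, 0 to 1 lower and a median of -0.11 to -0.093 for CC-CJ over AA-CJ, 0 higher, 0 lower and 0.021 to 0.057 for CC-CJ over CC, and 0 to 1 higher, 0 lower and -0.18 to -0.12 for CC over AA-CJ. The replicate numbers share no stated origin, and deviations of same-numbered arrays correlated at -0.112. With the replicate number as a block, 0 genes were called higher against AA-CJ in CC-CJ and 0 in CC, and Cox6b2, at the same 0.62 and 0.84, had an adjusted p of 0.0715 in each by limma. A crossed pairing, added after seeing the data, called 2 higher and 1 lower in CC-CJ over AA-CJ and 2 higher in CC over AA-CJ. Signal near background limits Cox6b2 and Cox8h, and having 2 arrays of each kind limits every gene.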
